A study of Mus musculus with 52 samples.

Results

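The Hox genes of the 4 mouse clusters were described by the ChIP-seq peaks that lie in and around them. The genes taken were 38 homeobox genes in Hoxa, Hoxb, Hoxc and Hoxd, out of 21951 protein-coding genes of the annotation. Every peak from 100 kb before to 100 kb after each cluster was read from each of 8 deposited peak lists, which made 4 windows of 1.28 Mb in all. In mm10 the listed genes spanned chr6:52162417-52260880 for Hoxa (10 genes), chr11:96194316-96368256 for Hoxb (10 genes), chr15:102921103-103036852 for Hoxc (9 genes) and chr2:74668310-74765142 for Hoxd (9 genes).

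The study compared female mouse embryonic fibroblasts, all derived from crosses of domesticus and castaneus mice, with and without the chromosomal protein SmcHD1. The wt cells were 1 clone (Wt2A1), the mut cells were 1 clone from an embryo homozygous for the SmcHD1 null allele MommeD1 (Mut5A6), and the somKO cells were 2 clones (A3-3 and D4) in which SmcHD1 was removed by CRISPR in a different wt clone, both of them triploid. Autosomes were a mosaic of the strains after recombination, and the 3 genotypes need not carry the same strain at a given Hox cluster. SmcHD1, CTCF and the cohesin subunit Rad21 were precipitated, with EGS and formaldehyde fixation for SmcHD1 and Rad21 and formaldehyde alone for CTCF. The authors merged the reads of all replicates of a group before they called peaks, so each group was 1 list with no replicate error, no test of a difference between genotypes was possible and no p-value is given. Clone, strain, copy number and list length differ between the genotypes together with SmcHD1 and cannot be told apart from it. No expression values were analysed, so the label fibroblast was not checked against marker genes.

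Hox genes encode homeodomain transcription factors that set the identity of segments along the body axis. They lie in the chromosome in the order in which they are used along that axis, from the anterior genes with low numbers to the posterior genes with high numbers. CTCF is a DNA binding protein with an oriented motif. Cohesin is a ring-shaped complex that extrudes chromatin loops and is stopped at CTCF sites, so sites of both are known as boundaries inside Hox clusters, between segments of active and silenced genes. SmcHD1 is a relative of the SMC proteins of cohesin, known for its part in X inactivation, in imprinted clusters and in the silencing of some gene clusters on autosomes.

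Each peak was given its percentile, the rank of its deposited score within its own list, with 100 the highest. A position between genes is written as the pair of genes that flank it, and the flanks are the 100 kb outside the listed genes. Shares are given with 95% Wilson intervals, which cover counting error only, since reads and depth behind the peaks are unknown, and they are set beside the share in the whole list.

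SmcHD1 peaks of wt cells were concentrated in 1 cluster of the 4. The Hoxc window held 28 peaks, Hoxb 3, Hoxd 1 and Hoxa 0, which made 32 of the 6993 peaks of the list. All 32 lay within the spans of the listed genes and the flanks held 0. The list of the SmcHD1 null cells held 0 peaks in the 4 windows of 244 in all, which allows up to 1.23% of that list. The 244 peaks against 6993 are the check of the genotype label that these lists allow for mut. No SmcHD1 list was analysed for somKO, so that label has no such check here.

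The 3 SmcHD1 peaks with the highest scores in Hoxc are shown by the 200 bases around their middle. The middle is that of the called span, and where signal was highest within a peak was not examined. They are written on the plus strand of GRCm38.p6 with CpG dinucleotides in capitals. The first lies between Hoxc9 and Hoxc8 (chr15:102987108-102987307, 5 CpG), the second across the end of the first coding exon of Hoxc9 (chr15:102982102-102982301, 20 CpG) and the third in Hoxc8 (chr15:102991725-102991924, 3 CpG).
Hoxc9 to Hoxc8: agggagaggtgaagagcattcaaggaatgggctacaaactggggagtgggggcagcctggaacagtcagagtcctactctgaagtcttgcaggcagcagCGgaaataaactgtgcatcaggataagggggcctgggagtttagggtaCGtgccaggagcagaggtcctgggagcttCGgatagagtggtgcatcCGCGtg
Hoxc9: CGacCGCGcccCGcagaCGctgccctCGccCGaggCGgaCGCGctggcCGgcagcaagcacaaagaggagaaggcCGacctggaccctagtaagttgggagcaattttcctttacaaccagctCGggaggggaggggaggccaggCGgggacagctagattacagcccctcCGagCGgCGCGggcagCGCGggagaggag
Hoxc8: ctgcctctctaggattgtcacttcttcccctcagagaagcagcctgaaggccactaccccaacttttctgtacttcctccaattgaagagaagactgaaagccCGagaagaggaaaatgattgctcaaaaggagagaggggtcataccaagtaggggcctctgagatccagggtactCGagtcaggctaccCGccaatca
The sequences differed in CpG content even among the top peaks, with the Hoxc9 stretch, part exon and part intron, far richer than the other pair.

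The SmcHD1 peaks of Hoxc formed a block over the middle of the cluster. The window held 88.7 peaks per Mb, against 1.77 on the whole of chromosome 15 and 2.09 on all autosomes, and its 28 peaks were 15.2% of the 184 on that chromosome. Hoxb held 8.02 per Mb against 2.42 on chromosome 11, and Hoxd 3.37 against 0.736 on chromosome 2. When peaks with gaps of up to 10 kb were joined, 25 of the 28 fell in 1 run from Hoxc10 to Hoxc5, chr15:102965651-103015986, which was 50.3 kb long and 30.4% covered by peaks. By number of peaks this run ranked 16 of 2651 autosomal runs, of which 1984 held 1 peak, 58 held at least 10 and the longest held 108. Over the span of the listed Hoxc genes the peaks covered 13.8% of the bases, against 0.0701% of chromosome 15. With scores of at least 50, chosen after seeing the data, 8 Hoxc peaks were left (28.6%, against 43.1% of autosomal SmcHD1 peaks) and the longest run there held 6, from chr15:102980851 to 103001447, with 26 of 1304 autosomal runs holding more.

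**Figure D1:**
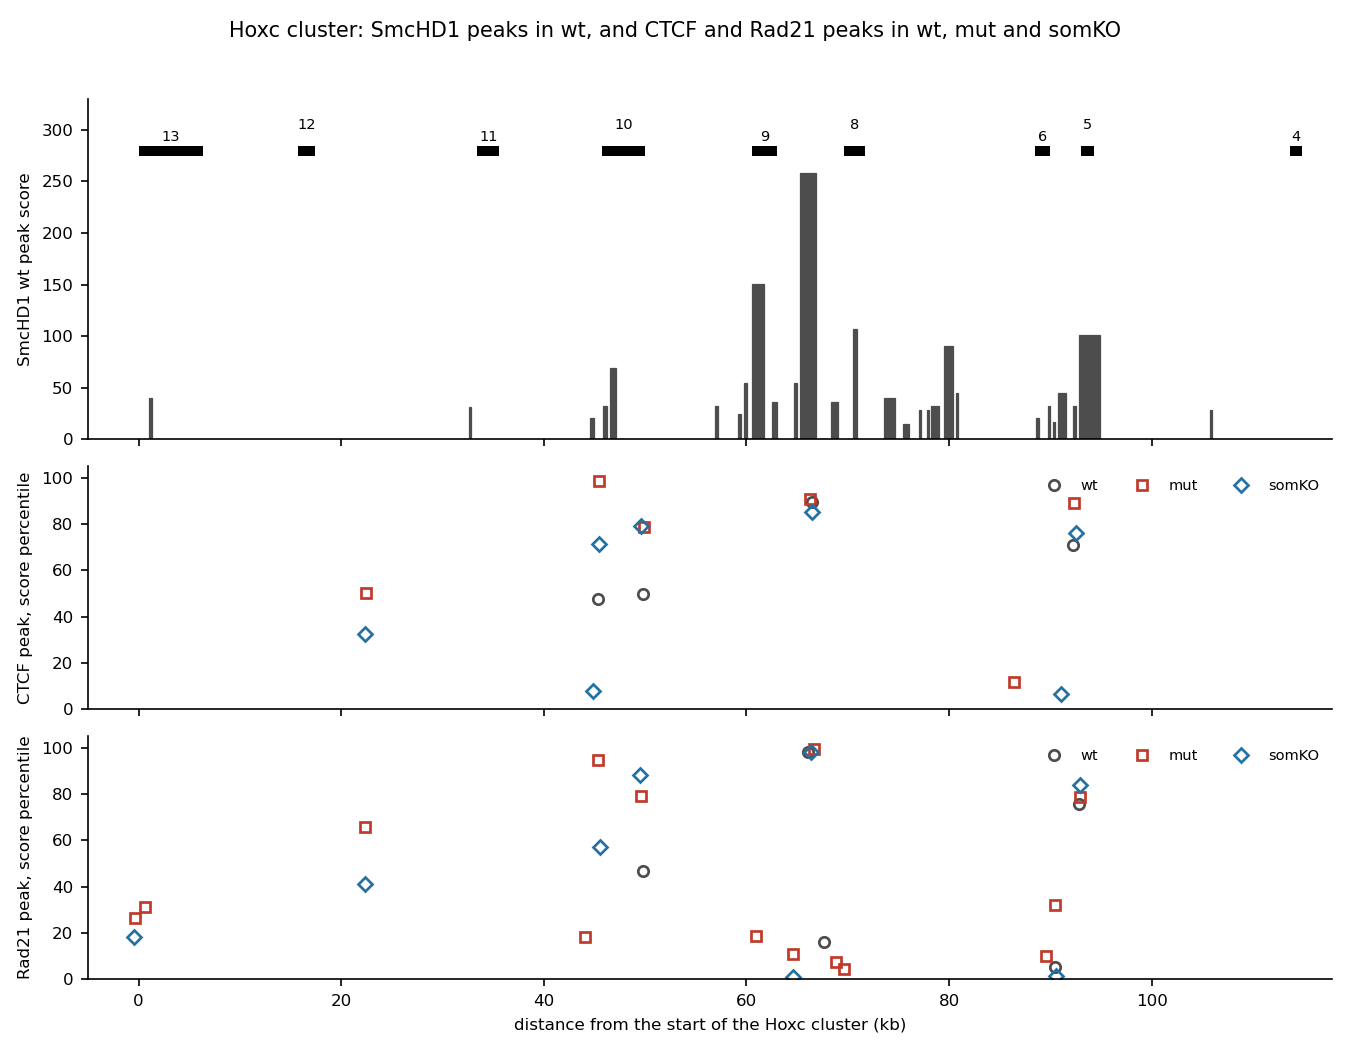
The x axis is the distance from the start of the Hoxc cluster (kb) and black bars at the top mark the genes by number. The top panel gives each SmcHD1 wt peak with its score, the highest at 258 between Hoxc9 and Hoxc8, and the lower panels give the score percentile of each CTCF and Rad21 peak in wt, mut and somKO, with CTCF at the start of Hoxc10 at 47.8, 98.4 and 71.2.

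The density did not go with high scores. The median percentile of the 28 Hoxc peaks was 34.0 and their scores ran from 15 to 258, with a median of 34.0 against 45.0 in the list. Their median width was 392.5 bp against 316.0 bp, and 4 of the 28 were at least 1000 bp wide, against 5.52% of the list.
The strongest, between Hoxc9 and Hoxc8 at chr15:102986411-102988004, had a score of 258 and stood at percentile 95.9. The peak in Hoxc9 at chr15:102981607-102982795 (score 151) stood at 91.6, that in Hoxc8 at chr15:102991612-102992036 (score 107) at 86.3 and that in Hoxc5 at chr15:103013911-103015986 (score 101), the widest at 2076 bp, at 85.1. A score of 90 was found at chr15:103000560-103001447 between Hoxc8 and Hoxc6 (percentile 82.1), and a score of 69 in the intron of Hoxc10 at chr15:102967585-102968271 (percentile 73.0).
The other 22 Hoxc peaks had scores of 15 to 54. The interval between Hoxc8 and Hoxc6 held the most, 7 peaks, followed by 3 each between Hoxc10 and Hoxc9, between Hoxc9 and Hoxc8 and between Hoxc6 and Hoxc5. Hoxc10, Hoxc9 and Hoxc6 held 2 each, and Hoxc13, Hoxc8, Hoxc5 and the intervals Hoxc12 to Hoxc11, Hoxc11 to Hoxc10 and Hoxc5 to Hoxc4 held 1 each. By the middle of the peak, 22 lay in an intron, 3 in a coding exon, 1 in an untranslated exon and 2 outside the listed genes. Most of the introns are those of a long Hoxc5 transcript annotated from the Hoxc10 end of the cluster, which spans the genes between.

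The 4 peaks outside Hoxc were weak. They were chr11:96261543-96261822 between Hoxb13 and Hoxb9 (score 40, percentile 44.0), chr11:96284306-96284555 in Hoxb8 (score 28, percentile 23.2), chr11:96319318-96319616 in Hoxb4 (score 24, percentile 15.9) and chr2:74698098-74698513 in Hoxd9 (score 42, percentile 47.2). All of them but the one in Hoxb4 overlapped a CTCF peak in each of the 3 genotypes.

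The Hoxc SmcHD1 peaks had a higher median CpG ratio and a lower median repeat share than other SmcHD1 peaks, with wide overlap. Their median GC content was 53.4%, against 50.5% for all 5154 autosomal SmcHD1 peaks and 44.8% for the 1792 on the X. The median ratio of observed to expected CpG was 0.420, 0.276 and 0.177 in the same order, and the median soft-masked (repeat) share of a peak was 5.87%, 13.1% and 39.3%. The quartiles of the CpG ratio were 0.249 and 0.615 in Hoxc and 0.129 and 0.626 on autosomes, and peaks with no repeat at all were 7 of 28 in Hoxc, 26.2% on autosomes and 11.7% on the X. The 721 other autosomal peaks in equally dense surroundings (as many SmcHD1 peaks within 50 kb as the Hoxc median, or more) had a median GC content of 47.2% and a repeat share of 27.3%. These are medians of peaks that share a cluster, given as a description. Hoxc sequence outside the peaks was not compared, so whether the values belong to the peaks or to the cluster was not tested.

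Few of the SmcHD1 peaks in Hoxc overlapped CTCF or Rad21. Of the 28 peaks, 4 overlapped a CTCF peak of the wt list (14.3%, interval 5.70% to 31.5%, against 24.5% of autosomal SmcHD1 peaks) and 4 a Rad21 peak of the wt list (14.3%, against 30.7%). Against the CTCF lists of mut and somKO 6 and 5 overlapped (autosomes 25.9% and 30.6%), and against Rad21 8 and 6 (28.6% and 21.4%, against 30.9% and 1957 of 5154 peaks on autosomes). The autosomal share lay inside the interval in all 6 cases, so at this number of peaks no difference from other autosomal SmcHD1 peaks was detectable.

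CTCF sites held by every genotype lay between many of the genes of Hoxa, Hoxb and Hoxd, and those in Hoxc ranked lower in wt. CTCF and Rad21 peaks of the 3 genotypes were joined into sites wherever they overlapped by at least 1 bp. CTCF peaks numbered 68, 85 and 82 over the 4 windows in wt, mut and somKO, from lists of 60204, 57798 and 69736. They made 103 sites, of which 55 were present in all 3 genotypes. Hoxa and Hoxb were richer in CTCF peaks than their chromosomes, with 50.3 and 90.9 per Mb in wt against 25.8 and 41.4. Hoxd held 37.1 against 23.6, while Hoxc held 25.3 against 28.4, the lowest of the 4.

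**Figure D2:**
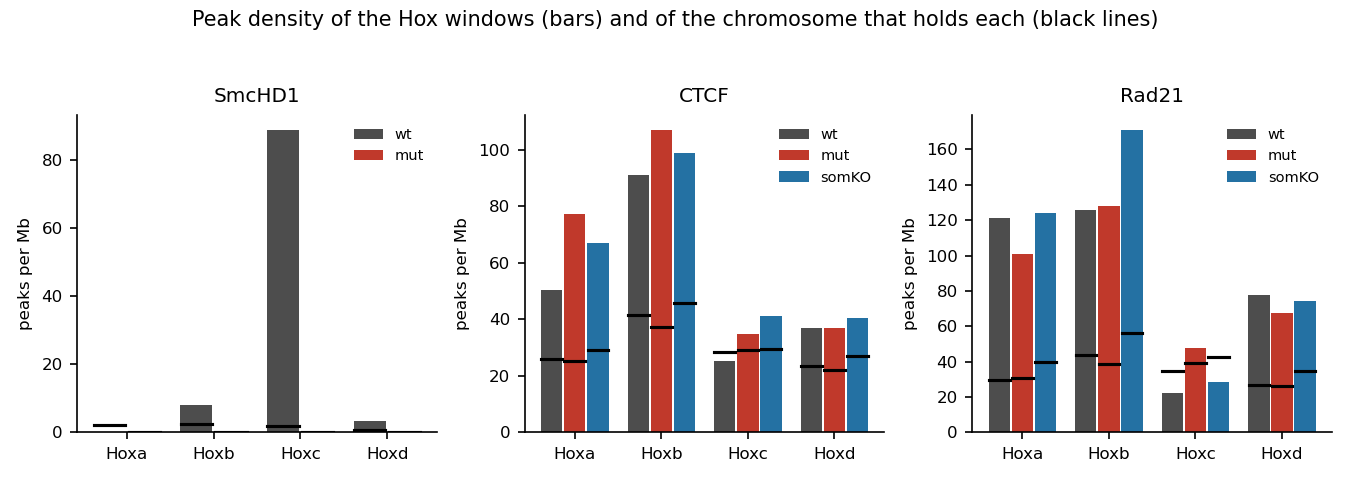
Bars are peaks per Mb of each Hox window in each list and black lines are the chromosome that holds it. SmcHD1 stood at 88.7 per Mb in Hoxc in wt, and Hoxc was the window with the fewest CTCF and Rad21 peaks per Mb in wt.

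In Hoxa, 4 sites between genes stood at the top of all 3 lists. Percentiles are given in the order wt, mut, somKO. The site between Hoxa7 and Hoxa9 (chr6:52221391-52222495), at the border to the posterior genes, stood at 99.5, 99.5 and 99.6 and held the highest CTCF rank of the 4 windows in wt. The site between Hoxa5 and Hoxa6 (chr6:52204327-52206336) stood at 99.3, 99.0 and 99.2, that between Hoxa6 and Hoxa7 (chr6:52210544-52212381) at 98.0, 99.4 and 99.2, and that between Hoxa10 and Hoxa11 (chr6:52239791-52241904) at 98.0, 99.3 and 95.2. The sites between Hoxa4 and Hoxa5 (chr6:52197232-52198098) and between Hoxa11 and Hoxa13 (chr6:52256514-52257591) were at 90.8, 80.3, 92.0 and at 86.3, 85.0, 81.1. The first 4 thus stayed at or above percentile 95.2 in each list, while the site between Hoxa4 and Hoxa5 stood lower in mut than in the other genotypes. The remaining wt peaks in the span lay in Hoxa5 (45.5, 47.1, 47.7), between Hoxa3 and Hoxa4 (46.8, 64.1, 46.0) and in Hoxa9, where a weak peak at 1.41 in wt stood at 21.8 in mut and had no counterpart in somKO.

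In Hoxb the highest wt site lay between Hoxb6 and Hoxb5 (chr11:96301038-96303489) at percentiles of 99.1, 97.7 and 99.2. The site between Hoxb7 and Hoxb6 (chr11:96294292-96295990) stood at 96.5, 88.6 and 95.9, and that between Hoxb5 and Hoxb4 (chr11:96311155-96312186) at 92.3, 91.1 and 95.1. The long interval from Hoxb13 to Hoxb9 held 3 high sites in every genotype. They were chr11:96234391-96235934 (94.0, 92.2, 94.4), chr11:96239730-96241037 (92.7, 89.6, 92.4) and chr11:96260417-96262163 (91.3, 93.3, 89.3), the last with 1 of the SmcHD1 peaks. Weaker wt sites in that interval were at 7.05, 71.1, 72.9, 14.0 and 0.347. Others in the span were between Hoxb9 and Hoxb8 (87.8, 76.9, 88.3), at the end of Hoxb8 (57.5, 56.9, 61.2), between Hoxb7 and Hoxb6 (39.7, 42.4, 37.3, and a wt-only site at 4.26), between Hoxb4 and Hoxb3 (35.7, 19.7, 36.8) and in Hoxb3 (49.6, 54.0, 24.3).

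In Hoxd the highest wt site lay between Hoxd9 and Hoxd8 (chr2:74701919-74702675) and stood at 91.2, 91.3 and 91.6. The site between Hoxd8 and Hoxd4 (chr2:74715565-74716501) stood at 83.3, 85.3 and 87.9, and those between Hoxd11 and Hoxd10 at 77.8, 71.0, 76.5 (chr2:74685736-74686902) and 48.6, 74.3, 58.9 (chr2:74691289-74691970). The sites between Hoxd13 and Hoxd12 (58.8, 64.2, 73.7), in Hoxd10 (53.2, 62.8, 54.3), in Hoxd9 (47.6, 66.1, 59.5) and at the start of Hoxd8 (7.58, 13.2, 13.8) were lower, and a wt-only site between Hoxd8 and Hoxd4 stood at 1.41. The list of CTCF sites in Hoxd was the most alike between genotypes, with 10 of 14 sites in all 3.

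In the Hoxc window the CTCF sites present in all 3 genotypes, 7 of 12, had median percentiles of 49.8 in wt, 87.3 in mut and 76.3 in somKO. In the other clusters the medians differed less, at 84.2, 82.7 and 85.3 in Hoxa, 78.1, 71.8 and 84.3 in Hoxb and 61.4, 68.5 and 71.1 in Hoxd. The 3 Hoxc medians fall on different sites, so their gap is not the change of a typical site. Taken peak by peak, the median change from wt in Hoxc was 7.45 percentile points in mut and 5.36 in somKO. The whole lists had -0.704 and 4.28. The other clusters had 1.31 and 0.0154 (Hoxa), -3.34 and 2.17 (Hoxb) and 3.71 and 4.57 (Hoxd). The Hoxc span held 4 CTCF peaks in wt. That at the start of Hoxc10 (chr15:102965717-102967374) stood at 47.8 in wt, 98.4 in mut and 71.2 in somKO. That at the other end of Hoxc10 (chr15:102970075-102971655) stood at 49.8, 78.9 and 79.2, and that between Hoxc6 and Hoxc5 (chr15:103011912-103014491) at 70.9, 88.9 and 76.3. The site with the highest CTCF rank of the window in wt, between Hoxc9 and Hoxc8 (chr15:102986907-102987956), did not follow them, with 89.6, 90.7 and 85.0. It lies under the strongest SmcHD1 peak of the cluster.

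The step at the start of Hoxc10 in mut was the largest upward step of the 57 CTCF peaks shared there and was singled out for that, so its place in the list is a description. Of the 48324 wt CTCF peaks also found in mut, 1047 (2.17%) stood higher in mut by as many percentile points or more as the 50.6 there, and against somKO 6.47% stood higher by at least its 23.4. For the second Hoxc10 site the steps were 29.1 and 29.4 points, reached by 3.68% and 4.57%. A step of 20 points or more upward was made by 5 of the 57 shared Hox peaks in mut (list 6.37%) and by 6 of 61 in somKO (list 8.72%), which is 8.77% (interval 3.81% to 18.9%) and 9.84% (4.59% to 19.8%), with both list shares inside the intervals. In Hoxc such an upward step was made by 2 of 7 shared peaks in either genotype (28.6%, interval 8.22% to 64.1%). Over chromosome 15 the share of shared peaks with such a step was 10.7% in mut, inside that interval, and 6.30% in somKO, below it. With the whole list the reading was the reverse, with 6.37% in mut below the interval and 8.72% in somKO inside it. Whether Hoxc stood apart thus depends on the comparison set. Downward steps of that size were made by 2 of 57 (3.51%, list 5.54%) and by 2 of 61 (3.28%, interval 0.904% to 11.2%, above the list's 0.255%), and by 0 of 7 in Hoxc. Part of the 6 upward steps in somKO comes from construction. A small wt peak takes the rank of a somKO peak that also overlaps its stronger wt neighbour. In Hoxb this holds for wt peaks at percentiles 5.32, 24.5 and 3.19, with steps of 91.2, 64.8 and 92.7. The comparisons of mut and of somKO with wt share the wt list, so a low wt rank at a site enters both. The wt list rests on 3 merged CTCF libraries and no library could be examined alone.

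**Figure D3:**
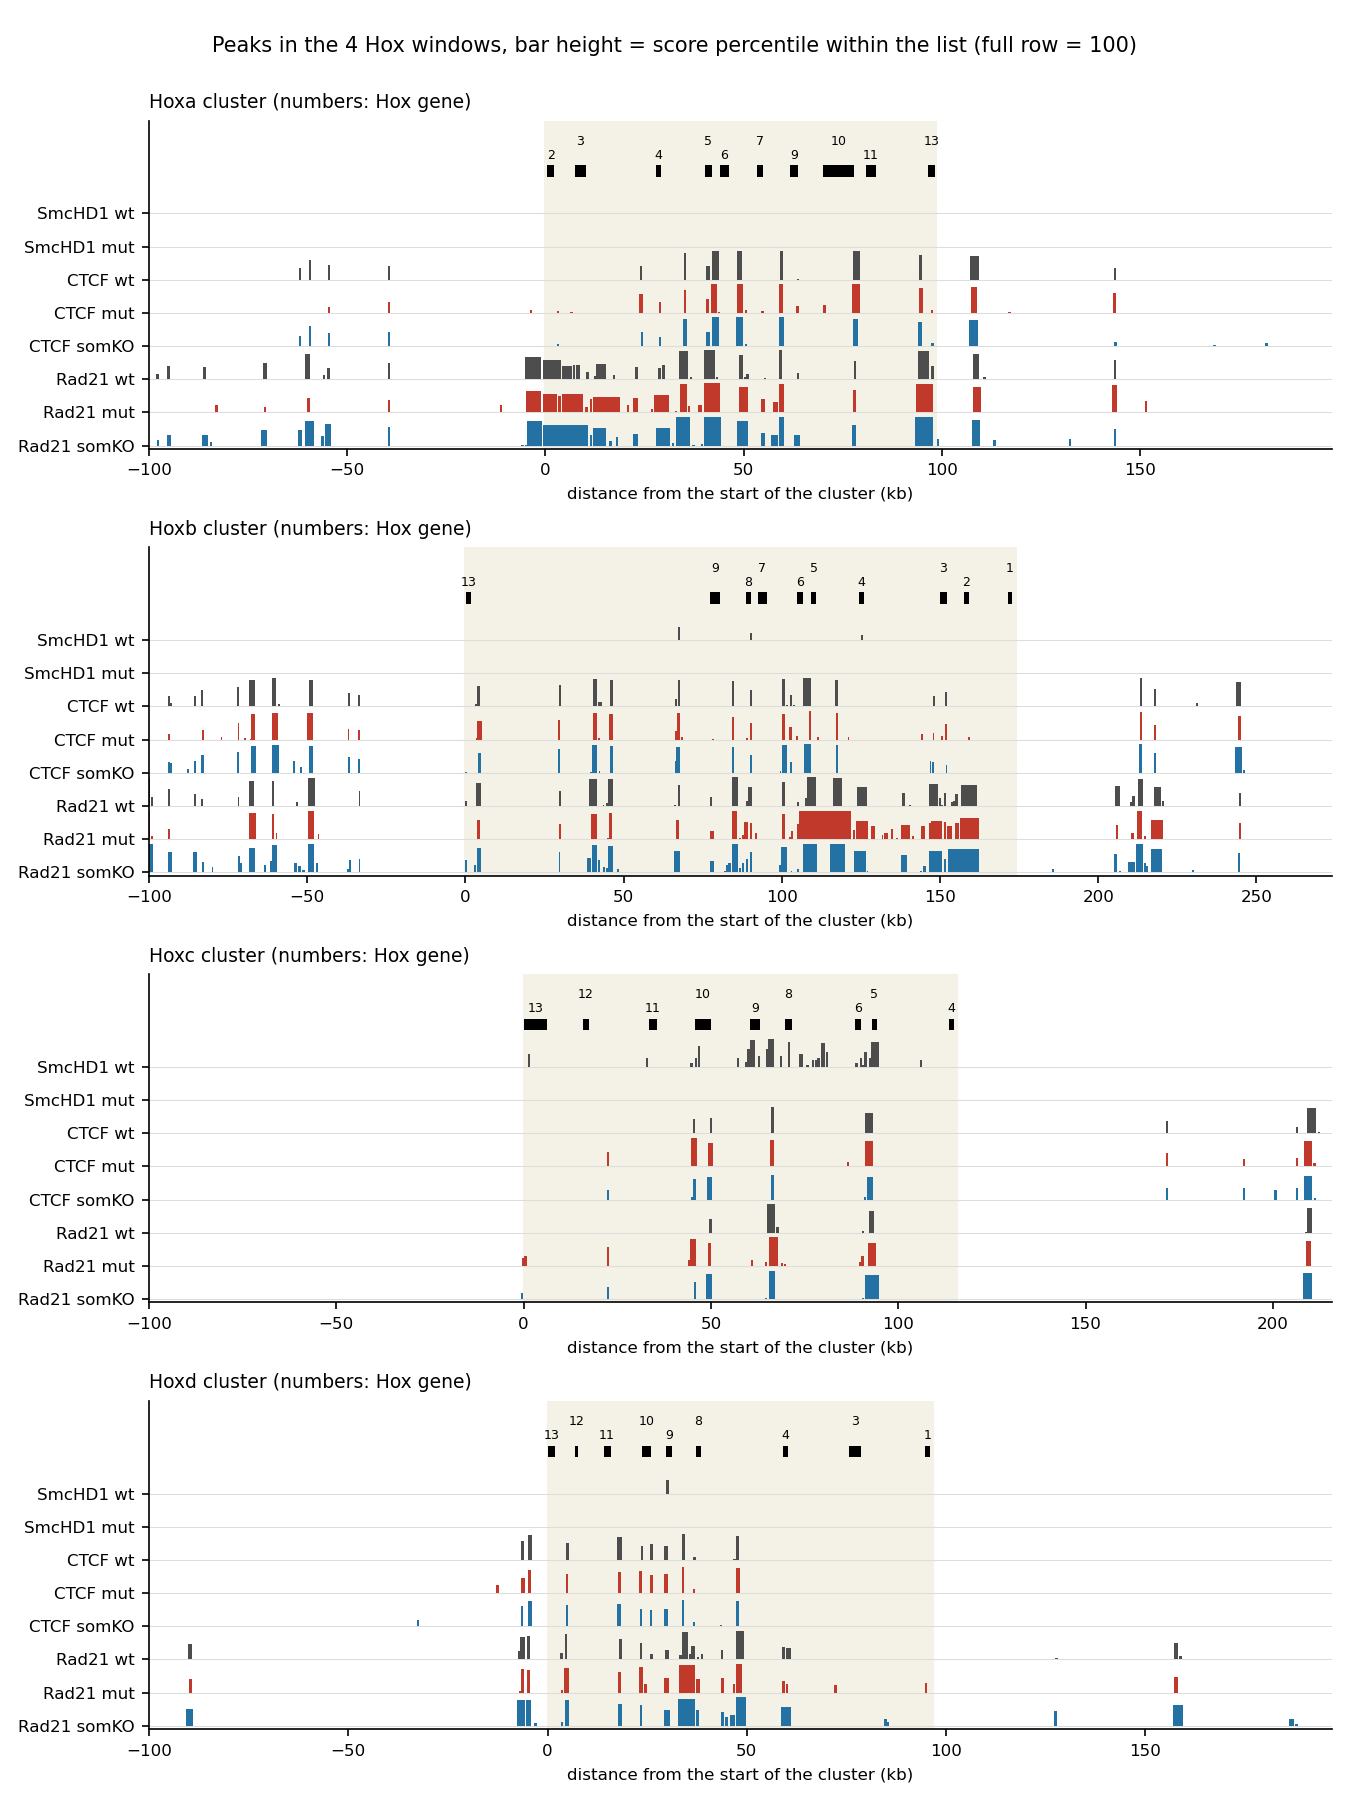
Each row is a peak list over the 4 windows, with distance from the start of the cluster (kb) on the x axis, the span of the listed genes shaded, and bar height as score percentile within the list. Bar width follows peak width (narrow peaks are widened to be visible), and the Rad21 peak of 16.4 kb in mut stands over Hoxb5.

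Examples of CTCF sites with the core of the CTCF motif are shown next. The orientation of this motif is known to matter for where cohesin stops. The sites shown are a choice, and other sites of the spans held the motif on either strand. Among those not shown were the site between Hoxb6 and Hoxb5 (plus strand) and the one in Hoxb3 with CTCF in every genotype (minus strand). The motif searched, on both strands, was CC, any 3 bases, AG, any 2 bases and GGC. Each line gives 30 bases of GRCm38.p6, read 5′ to 3′ on the strand of the motif, with the motif in capitals. From Hoxa they are the sites between Hoxa6 and Hoxa7 (chr6:52211273-52211302), Hoxa7 and Hoxa9 (chr6:52221800-52221829) and Hoxa10 and Hoxa11 (chr6:52240532-52240561), all on the minus strand. From Hoxb they are 1 site between Hoxb13 and Hoxb9 with the SmcHD1 peak (chr11:96261744-96261773, minus strand) and the site between Hoxb9 and Hoxb8 (chr11:96278939-96278968, plus strand). The Hoxb13 to Hoxb9 site also held a match on the plus strand, which is not shown, so it has no single orientation. From Hoxd they are the sites between Hoxd13 and Hoxd12 (chr2:74673169-74673198, minus strand) and Hoxd8 and Hoxd4 (chr2:74715912-74715941, plus strand). For contrast, the last pair are repeat copies in the flanks of Hoxa (chr6:52100293-52100322, minus strand) and Hoxb (chr11:96100464-96100493, plus strand).
Hoxa6 to Hoxa7: aaggcagctCCAGGAGAGGGCtggtaactg
Hoxa7 to Hoxa9: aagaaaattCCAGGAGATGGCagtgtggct
Hoxa10 to Hoxa11: tcgcagccgCCACGAGATGGCgcactcccg
Hoxb13 to Hoxb9: cgcgaccgaCCTCTAGGCGGCgccctggcg
Hoxb9 to Hoxb8: gcacagtggCCGCTAGATGGCatccttgct
Hoxd13 to Hoxd12: gccaaacgcCCAGGAGATGGCgagcgtgct
Hoxd8 to Hoxd4: gagctttgtCCAGGAGGAGGCgctgtagga
Flank of Hoxa: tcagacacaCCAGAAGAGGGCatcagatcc
Flank of Hoxb: tctgacacaCCAGAAGAGGGCattagatcc
The motifs of Hoxa7 to Hoxa9 and of Hoxd13 to Hoxd12 were the same 12 bases, and the others shown from the clusters differed outside the fixed letters. The flank copies shared their motif and nearly all the bases around it.

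Matches to the motif were not more frequent at the Hox windows than elsewhere. Of the 68 wt CTCF peaks 30 held it (44.1%, interval 32.9% to 55.9%), against 54.0% of the whole list. Among the 15 Hox peaks in the top 10% of the list 7 held it, against 69.7% of all peaks of that rank. In the Hoxc span 0 of the 4 wt peaks held these letters, and the strong site between Hoxa5 and Hoxa6 did not hold them either. A missing match says only that these letters are not in that peak.
Within the spans of the listed genes 14 of 41 peaks held the motif, and in 2 of these (14.3%) it lay in soft-masked repeat. In the flanks 16 of 27 held it, and in 11 of these (68.8%, interval 44.4% to 85.8%) it lay in a repeat, against 46.5% in the whole list. The core CCAGAAGAGGGC, the most frequent in the list at 36.8% of peaks with a motif, was found in 2 of 14 peaks of the spans and 9 of 16 of the flanks. Of the 13 motifs in repeats 11 thus stood outside the gene clusters.

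Rad21 peaks were densest in Hoxa and Hoxb and ranked highest at several of the same places as CTCF. Rad21 peaks numbered 113, 113 and 132 over the 4 windows in the same order, from lists of 67655, 66031 and 89974, joined into 149 sites of which 64 were present in all 3 genotypes. In wt, Hoxa held 121 per Mb, Hoxb 126 and Hoxd 77.5, against 29.6, 44.0 and 26.8 on their chromosomes, while Hoxc held 22.2 against 34.6. Their median width in wt was 613.0 bp in Hoxa, 499.0 bp in Hoxb and 649.0 bp in Hoxd, against 581.0 bp in the list. The highest wt peak of the Hoxa window was at Hoxa5 (chr6:52202359-52206674), where the site stood at 99.8, 100.0 and 99.9. The site between Hoxa7 and Hoxa9 (chr6:52221319-52222681) stood at 99.5, 99.9 and 99.6, that between Hoxa4 and Hoxa5 (chr6:52195324-52199159) at 99.3, 99.1 and 99.8, and that before Hoxa13 (chr6:52255626-52260336) at 97.5, 99.7 and 98.5. In Hoxb the site between Hoxb9 and Hoxb8 (chr11:96278553-96280478) stood at 99.4, 95.9 and 98.4 and that over Hoxb5 (chr11:96299893-96316284) at 99.4, 97.2 and 99.6. In Hoxd the top wt site lay between Hoxd8 and Hoxd4 (chr2:74715530-74718029; 99.0, 98.2, 99.3), and in Hoxc between Hoxc9 and Hoxc8 (chr15:102986202-102989047; 98.3, 99.6, 98.0). The last spans the strongest SmcHD1 peak and the top CTCF site of that cluster.

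The widest Rad21 peaks within the clusters were more numerous in both SmcHD1-deficient genotypes. In the spans of the listed genes 3 of 74 Rad21 peaks in wt were at least 3 kb wide (4.05%, interval 1.39% to 11.3%), 12 of 83 in mut (14.5%, 8.47% to 23.6%) and 13 of 75 in somKO (17.3%, 10.4% to 27.4%). The whole lists held 2.56%, 2.90% and 6.27% such peaks. The intervals of wt and of the other genotypes overlap, and for peaks of at least 2 kb the shares were alike, at 18.9%, 18.1% and 21.3% (lists 8.52%, 9.78% and 15.1%). The widest Rad21 peak of the entire mut list lay here, over Hoxb5 and the interval to Hoxb4, chr11:96299893-96316284, with a width of 16.4 kb and percentile 97.2. In wt the same site was made of 3 separate peaks and in somKO of 2. The widest in somKO, 11.3 kb over Hoxa2 (chr6:52161891-52173183), ranked 24 of its list by width, and the site held 5 peaks in wt and 4 in mut. The widest in wt, 5.04 kb at chr11:96351021-96356055 over Hoxb2, ranked 223. No CTCF peak in the spans reached 3 kb in any genotype.

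The bases covered by Rad21 were also more in mut and somKO than in wt, in each cluster. Rad21 peaks covered 27.1% of the Hoxa span in wt, 42.1% in mut and 43.8% in somKO, while chromosome 6 had 2.73%, 2.99% and 4.45%. In Hoxb the values were 19.7%, 32.0% and 29.3% (chromosome 11: 4.21%, 3.78% and 6.57%), in Hoxc 3.56%, 9.42% and 7.08% (chromosome 15: 3.25%, 3.99% and 4.80%) and in Hoxd 12.1%, 14.9% and 18.2% (chromosome 2: 2.29%, 2.39% and 3.67%). Over the 4 spans this was 76.8 kb in wt, 122 kb in mut and 120 kb in somKO, and 76.1, 122 and 111 kb when the lists were cut by score to equal length. The order of the clusters stayed alike, with Hoxa covered most and Hoxc least in each genotype. CTCF peaks covered 8.43%, 11.7% and 11.1% of Hoxa, 8.52%, 8.94% and 8.06% of Hoxb, 3.09%, 5.87% and 4.64% of Hoxc and 5.88%, 5.94% and 5.98% of Hoxd. Peak width depends on depth and on how many libraries were merged (2 for Rad21 in wt and in mut, 4 in somKO), and the part of either in the Rad21 widths was not tested.

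**Figure D4:**
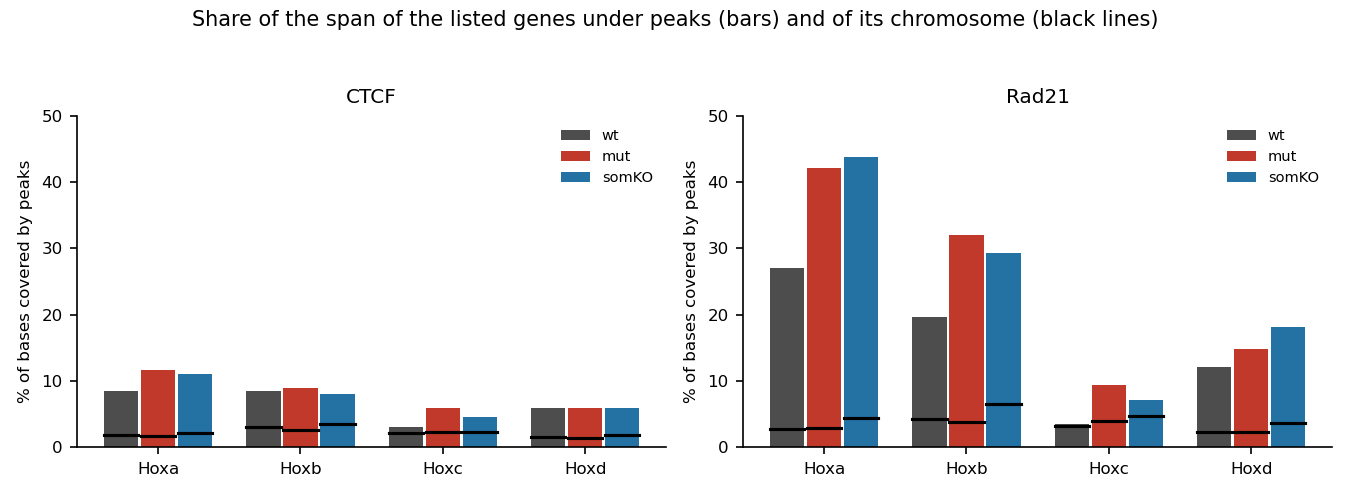
Bars are the percent of bases of the span of the listed genes under CTCF or Rad21 peaks in wt, mut and somKO, and black lines are the chromosome that holds it. Rad21 covered 27.1%, 42.1% and 43.8% of Hoxa, and CTCF differed less.

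Presence and absence of peaks were then compared with wt. A wt peak with no overlapping peak in the other genotype is called lost, and a peak of that genotype with none in wt is called gained. For CTCF in mut, 11 of 68 wt peaks were lost (16.2%, interval 9.28% to 26.7%, whole list 19.7%) and 24 of 85 mut peaks were gained (28.2%, 19.8% to 38.6%, list 16.8%). In somKO 7 of 68 were lost (10.3%, 5.08% to 19.8%, list 7.63%) and 20 of 82 gained (24.4%, 16.4% to 34.7%, list 22.6%). For Rad21 in mut, 22 of 113 were lost (19.5%, 13.2% to 27.7%, list 28.5%) and 39 of 113 gained (34.5%, 26.4% to 43.7%, list 27.2%). In somKO 6 of 113 were lost (5.31%, 2.46% to 11.1%, list 7.22%) and 48 of 132 gained (36.4%, 28.7% to 44.8%, list 37.8%). The whole-list share lay outside the interval for 2 of these 8, CTCF gained in mut (Hox higher) and Rad21 lost in mut (Hox lower). The second depends on the overlap rule, since with midpoints within 500 bp 43.4% were lost against 35.0% of the list, and with 50% of both peaks 60.2% against 48.1%.

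By single cluster, 2 of 32 shares had an interval that left out the list's share, both of them gains in mut. They were CTCF in Hoxa, with 9 of 23 peaks gained (39.1%, 22.2% to 59.2%, list 16.8%, chromosome 6 18.2%), and Rad21 in Hoxc, with 10 of 15 gained (66.7%, 41.7% to 84.8%, list 27.2%, chromosome 15 35.7%). In somKO the same clusters had 6 of 20 (30.0%, list 22.6%) and 4 of 9 (44.4%, 18.9% to 73.3%, list 37.8%), not apart from their lists. These 2 were singled out after all 32 were seen. With scores of at least 50 the Hoxa share was 27.8% (5 of 18, interval 12.5% to 50.9%), which no longer left out its list's 14.3%, and the Hoxc share was 44.4% (4 of 9, 18.9% to 73.3%) against 15.6%.

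**Figure D5:**
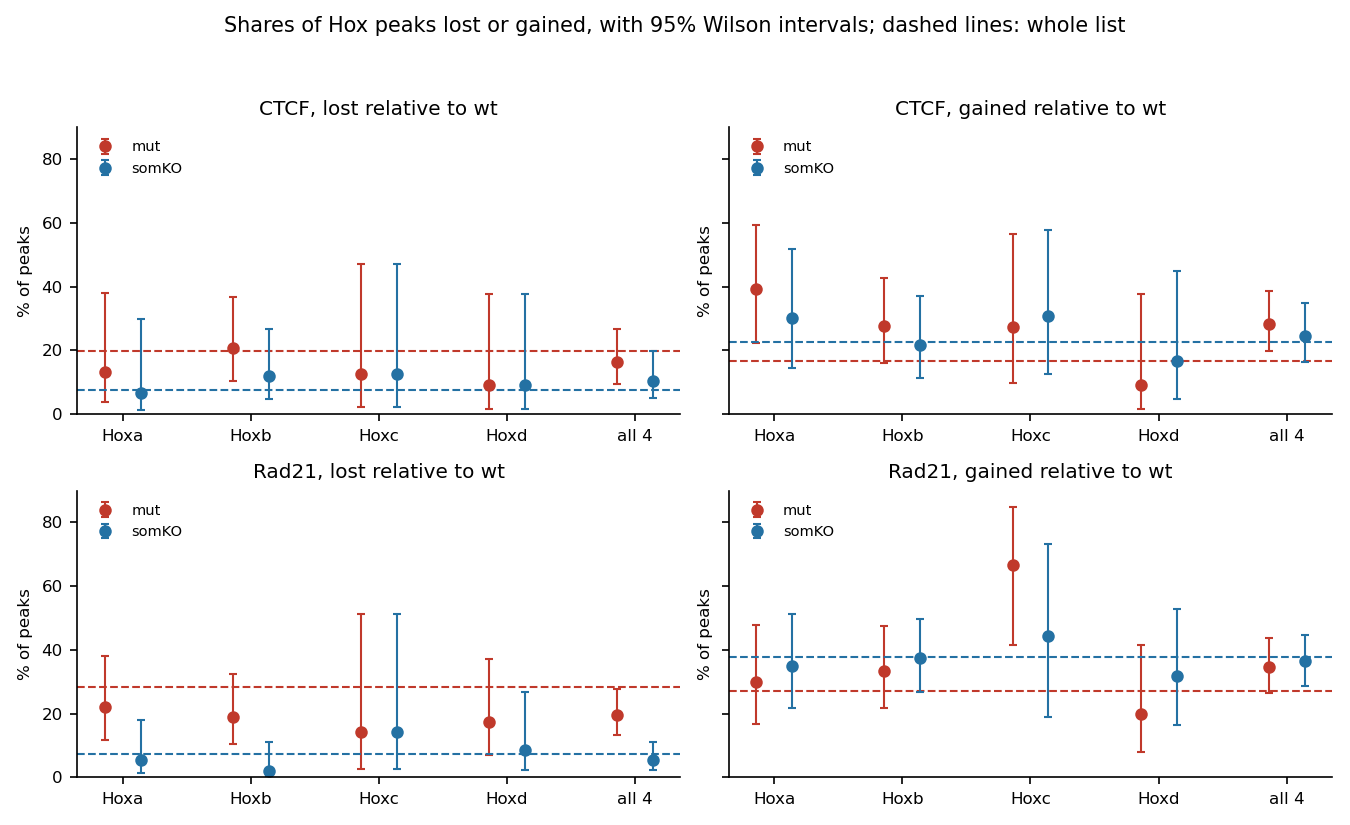
Points are the percent of wt peaks lost and of mut or somKO peaks gained in each Hox window and in all 4, bars are 95% Wilson intervals and dashed lines are the whole list. Rad21 gained in mut in Hoxc (66.7%) and CTCF gained in mut in Hoxa (39.1%) lie above their lines with the whole interval.

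The Rad21 sites of Hoxc were 15, with 5 in all genotypes, 6 in mut alone, 4 in mut and somKO and 0 in wt alone. The sites gained in both lay before Hoxc13 (chr15:102920323-102920906, percentiles 26.5 in mut and 18.3 in somKO), between Hoxc12 and Hoxc11 (chr15:102943229-102943609, 65.8 and 41.0), at the start of Hoxc10 (chr15:102965619-102967191, 94.6 and 57.1) and between Hoxc9 and Hoxc8 (chr15:102985572-102985816, 11.0 and 0.811). At the start of Hoxc10 the CTCF site described above also had its highest ranks in mut and somKO, and the wt list held CTCF there without Rad21. Between Hoxc12 and Hoxc11 a CTCF site was likewise gained in both (chr15:102943236-102943745, 50.2 and 32.4). At the other Hoxc10 site Rad21 was present in all 3 genotypes at 46.8, 79.0 and 88.0 (chr15:102969742-102971475). At these 3 places in the posterior part of the cluster CTCF and Rad21 both ranked higher, or were called, in mut and somKO. Before Hoxc13 Rad21 was gained without CTCF. The 6 sites in mut alone had percentiles of 4.23 to 31.0 and included 1 in Hoxc9 (chr15:102981738-102982409, 18.5) that lies within the second strongest SmcHD1 peak of wt.

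In Hoxb the interval between Hoxb4 and Hoxb3 held 6 Rad21 sites found in mut alone, from chr11:96322514-96323676 (42.4) to chr11:96335630-96336032 (7.30), the others at 12.7, 20.0, 32.1 and 0.893. The same interval held 2 sites in all 3 genotypes, 1 in mut and somKO (chr11:96338360-96339735, 43.2 and 19.7) and 1 in somKO alone, at 0.435. SmcHD1 had no wt peak in that interval, the nearest listed gene with one being Hoxb4.

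Sites gained or lost in both genotypes were mostly weak. CTCF sites gained in both were 6. Those outside Hoxc were between Hoxa2 and Hoxa3 (chr6:52165331-52165594, 2.86 in mut and 5.54 in somKO), in Hoxa4 (chr6:52190965-52191343, 36.2 and 30.0), between Hoxa6 and Hoxa7 (chr6:52212667-52213001, 8.91 and 3.07) and in Hoxa13 (chr6:52259625-52260241, 8.64 and 8.82). The flank beside Hoxc4 held the sixth (chr15:103113131-103113429, 22.4 and 37.3). Those in Hoxa all lay under Rad21 peaks that wt cells also had.
CTCF sites lost in both were 5, all at wt percentiles of 0.347 to 8.40. They lay between Hoxb13 and Hoxb9 (chr11:96237664-96237875), between Hoxb7 and Hoxb6 (chr11:96297785-96298154), in the flank beside Hoxb1 (chr11:96425172-96425411), in the flank beside Hoxc4 (chr15:103133207-103133470) and between Hoxd8 and Hoxd4 (chr2:74714923-74715150).
Rad21 sites gained in both were 14. Beside the 4 of Hoxc and the one between Hoxb4 and Hoxb3, those within the clusters were between Hoxa3 and Hoxa4 (chr6:52173652-52174222, 45.8 and 33.6), between Hoxa4 and Hoxa5 (chr6:52200802-52202036, 24.6 and 3.88), between Hoxa7 and Hoxa9 (chr6:52219347-52221030, 33.1 and 35.7), before Hoxb8 at 2 sites (chr11:96280744-96281045, 1.65 and 13.9, and chr11:96281622-96282167, 11.0 and 31.0), between Hoxb7 and Hoxb6 (chr11:96297095-96297418, 27.8 and 0.435) and between Hoxd8 and Hoxd4 (chr2:74714118-74715297, 29.6 and 34.6). The flanks beside Hoxb13 (chr11:96147018-96147817, 15.8 and 29.1) and Hoxb1 (chr11:96408780-96409894, 8.93 and 31.0) held the rest.
Rad21 sites lost in both were 3, in the flank beside Hoxa13 (chr6:52272888-52273145, wt percentile 5.25), in Hoxd10 (chr2:74694059-74694288, 16.1) and between Hoxd8 and Hoxd4 (chr2:74706823-74707158, 16.1). No site of either antibody with a wt percentile above 16.1 was lost in both.

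Among Rad21 peaks present on both sides, upward steps of rank were frequent in the whole lists and more frequent in the Hox windows. In mut 25 of 91 shared Hox peaks stood at least 20 points higher than in wt (27.5%, interval 19.4% to 37.4%, list 13.0%). In somKO 41 of 107 did (38.3%, 29.7% to 47.8%, list 24.9%), and both list shares lay below the intervals. As much lower stood 5 in mut and 0 in somKO (lists 7.80% and 0.806%). Part of these counts comes from construction, because several small wt peaks under a single wide peak of mut or somKO each take that peak's rank. The sites with the clearest steps by their own ranks were at the start of Hoxa7 (chr6:52216770-52217897; 3.16, 44.3, 43.6), in Hoxb8 (chr11:96282421-96283574; 16.1, 59.6, 43.1) and in Hoxd8 (chr2:74705581-74706495; 5.25, 46.7, 54.2). Each of these lies within 1 kb of an annotated start of the gene named. Those in Hoxb8 and Hoxd8 lie inside the gene, past its annotated start.

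CTCF peaks of the Hox windows mostly had Rad21, and Rad21 peaks had CTCF less often. In wt 53 of 68 CTCF peaks overlapped Rad21 (77.9%, 66.7% to 86.2%, list 67.6%), in mut 64 of 85 (75.3%, 65.2% to 83.2%, list 68.6%) and in somKO 69 of 82 (84.1%, 74.7% to 90.5%, list 74.4%). In Hoxc the shares were 4 of 8, 6 of 11 and 7 of 13, and in Hoxb of somKO 35 of 37. Of the Rad21 peaks 54 of 113 overlapped CTCF in wt (47.8%, 38.8% to 56.9%, list 58.9%), 55 of 113 in mut (48.7%, 39.7% to 57.8%, list 58.4%) and 63 of 132 in somKO (47.7%, 39.4% to 56.2%, list 54.9%). Hoxa had the lowest share in wt, 13 of 36 (36.1%, 22.5% to 52.4%). The Rad21 peaks without CTCF included broad ones over the Hoxa3 to Hoxa4 interval (chr6:52174498-52181315, a site of 6.82 kb at 53.2, 51.2 and 60.3) and over Hoxb4 (chr11:96316768-96321596, 4.83 kb at 65.5, 61.1 and 73.0).

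Gene by gene, the body with 1 kb upstream of the start was compared with the peaks. SmcHD1 wt peaks were found at 11 of the 38 genes (28.9%, against 7.74% of all genes tested), namely Hoxb4, Hoxb8, Hoxd9 and 8 of the 9 Hoxc genes, all but Hoxc12. In mut they were found at 0 of the 38 (0.570% of all genes). CTCF was found at 18 genes in wt (list 59.2% of genes), 23 in mut (60.9%) and 21 in somKO (62.9%). Rad21 was found at 26 in wt (65.2%), 30 in mut (67.2%) and 28 in somKO (70.0%). Shares of the Hox genes were 47.4%, 60.5% and 55.3% for CTCF and 68.4%, 78.9% and 73.7% for Rad21. Hox genes are short and annotated bodies nest, with Hoxc5 reaching to Hoxc10 and Hoxa3 over Hoxa4, Hoxa5 and Hoxa6, so a peak can count for several genes.

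The 4 genes with no peak in any list were Hoxa11, Hoxb1, Hoxc12 and Hoxd12. Hoxc4 and Hoxc11 held SmcHD1 (1 peak each) and nothing else. Hoxb7 and Hoxd1 each held 1 Rad21 peak, in mut, and no other. Hoxc8 and Hoxc9 had no CTCF in any genotype, had 2 and 5 SmcHD1 peaks in wt, and 2 and 1 Rad21 peaks in mut alone. Hoxc13 had 1 SmcHD1 peak and Rad21 in mut (2) and somKO (1). Hoxb4 and Hoxd13 had no CTCF and held Rad21 in each genotype (1, 2 and 2, and 1 each).
CTCF was found in all 3 genotypes at 16 genes and Rad21 at 24. In Hoxa the 3 CTCF counts in the order wt, mut, somKO were 5, 8 and 7 at Hoxa3, 2 each at Hoxa5, 1, 2 and 1 at Hoxa7 and 1, 2 and 1 at Hoxa10. Rad21 there was 17, 14 and 13 at Hoxa3, 2 each at Hoxa5, 2, 3 and 3 at Hoxa7 and 1 each at Hoxa10. CTCF appeared at Hoxa2, Hoxa4 and Hoxa13 with 1 peak in mut and in somKO, and at Hoxa6 with 1 in somKO, where wt had none. These 4 genes carried Rad21 counts of 1, 2 and 1 at Hoxa2, 2, 1 and 1 at Hoxa4, 0, 1 and 1 at Hoxa6 and 2, 1 and 2 at Hoxa13. Hoxa9 had CTCF in wt and mut (1 each) and Rad21 in wt and somKO (1 each).
In Hoxb, CTCF was found in each genotype at Hoxb8 (1, 2, 1), Hoxb6 (5, 3, 4), Hoxb5 (1, 2, 1) and Hoxb3 (2, 4, 3). Rad21 at these was 2, 4 and 4 at Hoxb8, 2, 5 and 5 at Hoxb6, 1 each at Hoxb5, since the broad peak counts once, and 7, 12 and 6 at Hoxb3. Hoxb9 and Hoxb2 had 1 CTCF peak in mut alone, with Rad21 at 1, 1 and 3 and at 2, 2 and 1. Hoxb13 had CTCF in wt and somKO (1 each) and Rad21 in the same genotypes (1 and 2), and none of either in mut.
In Hoxc, Hoxc10 had CTCF at 2, 2 and 3 and Rad21 at 1, 2 and 2, Hoxc5 with its long body 4, 5 and 5 and 5, 10 and 6, and Hoxc6 CTCF at 0, 1 and 0 and Rad21 at 1, 2 and 1. SmcHD1 counts were 3 at Hoxc10, 8 at Hoxc6 and 24 at Hoxc5, the latter holding nearly the whole run. In Hoxd, Hoxd11 and Hoxd9 had 1 CTCF peak and 1 Rad21 peak in each genotype. Hoxd10 had CTCF at 2 each and Rad21 at 2, 2 and 1, and Hoxd8 CTCF at 1 each and Rad21 at 4, 2 and 2. Hoxd3 and Hoxd4, whose bodies overlap, had CTCF at 2, 1 and 2 each, with Rad21 at 4, 6 and 5 for Hoxd3 and 4, 5 and 5 for Hoxd4.

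Hox cofactors and genes beside the clusters were read in the same way. Pbx, Meis and Pknox (Prep) proteins are homeodomain partners that bind DNA together with Hox proteins. Of 8 cofactor genes 1 held SmcHD1, Pknox2 with 1 wt peak, while CTCF was found at 6, 7 and 6 in the order wt, mut, somKO, and Rad21 at all 8 in each genotype. Rad21 counts were highest at Pknox2 (16, 13, 19) and Meis1 (11, 14, 13). Of the 12 genes beside the clusters 0 held SmcHD1, CTCF was found at 5, 7 and 6 and Rad21 at 8, 9 and 8. Over all protein-coding genes the shares were 7.74% for SmcHD1 in wt, 59.2%, 60.9% and 62.9% for CTCF and 65.2%, 67.2% and 70.0% for Rad21. With so few genes in either group the counts are a description. Cbx5, the gene of the heterochromatin protein HP1 alpha beyond Hoxc4, held 9, 15 and 14 Rad21 peaks in the order wt, mut, somKO, and Skap2 beside Hoxa 8, 12 and 11, while Calcoco2 near Hoxb held 3, 1 and 3 and Mtx2 near Hoxd 2, 1 and 3. The long noncoding RNA genes Hotair, within Hoxc, and Hottip, beside Hoxa13, held no peak of any list.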

How the data were processed

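Per the labels and the study's methods, ChIP-seq reads were mapped with Bowtie2 to mm10 with strain SNPs masked, replicate files were merged per group, and MACS2 called narrow peaks with a q-value limit, from the reads of the 2 alleles together. Its version and use of input are not given in the sources used here. The 8 lists rest on 24 of the 52 libraries (3 each for SmcHD1 wt and mut and for CTCF wt and mut, 4 for CTCF somKO, 2 each for Rad21 wt and mut and 4 for Rad21 somKO). Libraries for H3K27me3 and inputs were left out. The deposited score in each list, a whole number of at least 13, was taken to scale with the significance of the peak and was used only as a rank within its list and for a filter.

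Genes came from GENCODE M21 and sequence from GRCm38.p6, both the build of the files. A peak was placed by coding spans, since annotated bodies nest. Peaks of 1 antibody overlapping by at least 1 bp were joined into a site. The text gives every listed gene by its counts, every SmcHD1 peak of the windows, the CTCF wt peaks within the spans, sites lost or gained in both genotypes and the highest CTCF and Rad21 wt peak of each window. The further sites, the wide peaks and the rank steps were chosen after their values were seen. Of the cofactor list 1 gene is not reported here. The members and lists were chosen with earlier results of these data known. Alternatives were another overlap rule, a score of at least 50, lists cut by score to equal length, other flanks, another motif and other gene regions. Scripts were tested on simulated peaks and used Python 3.11.15, pandas 2.3.3, numpy 2.4.6 and scipy 1.17.1. Read depth is unknown from these lists.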

Additional observations from a re-analysis of the deposited data

Results flagged for a closer look

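The number of Rad21 peaks in the Hoxa window moved in opposite directions from wt in the 2 SmcHD1-deficient genotypes, by -6 in mut and by 1 in somKO. This difference was not tested, since each group is 1 merged list. The covered bases of the span were higher than in wt in both, 42.1% and 43.8% against 27.1%, and in mut wide peaks stood where wt had several.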

How the results depend on the processing

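For 51 results, 154 values were computed under alternatives; 113 stayed within the counting interval (or within 1.5 times, for counts) and 41 moved, each of them given here. Below, the share of the whole list under the same setting follows in parentheses where it was computed. With 50% of both peaks required to overlap, CTCF lost and gained in mut were 30.9% (31.6%) and 43.5% (28.7%), CTCF lost in somKO 22.1% (20.2%), Rad21 lost and gained in mut 60.2% (48.1%) and 60.2% (46.9%), and Rad21 lost and gained in somKO 54.0% (41.4%) and 60.6% (55.9%), and Rad21 peaks at CTCF fell to 25.7% in wt, 25.7% in mut and 21.2% in somKO. With midpoints within 500 bp, Rad21 lost was 43.4% (35.0%) in mut and 39.8% (22.1%) in somKO, gained in somKO 48.5% (41.9%), and Rad21 at CTCF 38.1% in mut and 37.9% in somKO. With scores of at least 50, SmcHD1 wt peaks numbered 8 with a median percentile of 61.4 and the Hoxc run held 6, CTCF lost was 8.33% (15.9%) in mut and 1.67% (4.23%) in somKO, Rad21 lost 8.97% (19.9%) and 0% (2.66%), Rad21 gained 20.5% (15.6%) and 22.7% (25.4%), and Hoxc Rad21 peaks 4 in wt and 9 in mut. With lists of equal length, CTCF and Rad21 gains in somKO came to 12.3% (13.2%) and 18.0% (22.5%), and Rad21 at CTCF in somKO 58.4%. Without flanks, CTCF counts were 41, 56 and 47 in wt, mut and somKO, Rad21 counts 74 in wt and 75 in somKO, and Rad21 lost in mut 10.8% (28.5%). The motif that begins with CCA was found in 32.4% of wt CTCF peaks (44.8%), and within 100 bases of the middle in 23.5% (33.8%). Within 1 kb of a start site, CTCF was found at 9 listed genes in wt and 14 in mut and Rad21 at 17 in wt. At least 2 kb wide were 18.9% of Rad21 wt peaks in the spans (8.52%), 18.1% in mut (9.78%) and 21.3% in somKO (15.1%), so the difference from wt in wide peaks depends on the width chosen. The cause of these moves was not tested. The alternatives for coverage, the SmcHD1 run, wide peaks, Hoxc counts and single-cluster gains were chosen after seeing the data. No paired analysis was possible because each list merges all replicates of its group, and for the same reason no replicate could be left out.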
